A study of Mus musculus with 23 samples.

Results

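The genes of the mitochondrial respiratory chain were followed in RNA-Seq of mouse lung. Members were the rows of the expression table whose symbol begins with Nduf followed by a, b, c, s or v, Uqcr, Cox4 to Cox8 or Atp5, is Sdha, Sdhb, Sdhc or Sdhd, or begins with mt-Nd, mt-Co, mt-Cytb or mt-Atp, and that reached 0.5 RPM (reads of the gene scaled to the total of its library) in at least 4 of the 23 libraries. Of 108 matching symbols 98 passed, among 16795 genes tested of 35322 listed. They were 91 nuclear genes, 44 of complex I, 4 of complex II, 7 of complex III, 19 of complex IV and 17 of complex V, and 7 genes of the mitochondrial genome. The rule used symbols and a minimum level and no comparison of groups. The libraries came from homogenate of the right lower lobe (tissue label Lung (RML)) of Balb/c offspring aged 13 weeks, described by the study as female, whose lung function had been tested with methacholine. Sham offspring (n = 7) were born to dams given saline and received PBS or saline in place of allergen (the labels say PBS, the study's methods nebulised saline), and PM offspring (n = 7) were born to dams exposed to PM2.5, fine airborne particulate matter, by the nose before mating, in gestation and until weaning, with the same control treatment. Sham-OVA (n = 5) and PM-OVA (n = 4) offspring had the same maternal exposures and were in addition sensitised to and challenged with ovalbumin (OVA), which induces allergic airway disease. The offspring themselves were not given PM2.5. Labels give each library as its own replicate and do not tie libraries to dams, so p-values measure only the spread between these libraries.

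The respiratory chain passes electrons from NADH and succinate through complexes I, II and III to oxygen at complex IV, and complex V uses the resulting proton gradient to make ATP. Complexes I, III, IV and V are built from subunits of both genomes, whereas complex II is encoded in the nucleus alone. The mitochondrial genes are transcribed as long precursors that are cut into separate RNAs, and several nuclear subunits have isoforms that are restricted to muscle, lung or testis.

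Depth differed between the groups. Reads on genes ranged from 13089691 to 17393579 in the saline libraries and from 2298645 to 12355561 in the OVA libraries. The shallowest were Sham-OVA replicate 3 (2298645 reads), PM-OVA replicate 4 (4324326) and PM-OVA replicate 3 (5922469), in which 1 read was worth 0.311, 0.182 and 0.133 RPM. PM-OVA replicate 1 had 12355561 and replicate 2 had 11073754 reads. Sham replicate 3 stood apart in the mitochondrial members, with a sum of 30112 RPM where the rest of the group had 7754 to 10720 RPM. Sham replicate 1 had Xist, which silences an X chromosome in females, at 0.289 RPM (174 to 1618 RPM elsewhere) and Eif2s3y, a gene of the Y chromosome, at 54.0 RPM (listed at 0 elsewhere), so it went against the label of female. Without Sham replicate 1, 44 members rose and 15 fell after OVA in Sham offspring, beside 47 and 17 with it, and 0 were called in PM against Sham. Of all 16795 genes, 3259 rose and 7780 fell after OVA without it, and 3453 and 7978 with it. Markers of lung tissue were present in every library, with the 8 markers of alveolar type 2 cells summing to at least 14107 RPM and the 8 of alveolar type 1 cells to at least 3851 RPM.

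The authors' reads were aligned without splicing, and how reads with several equally good positions were counted is not given in the sources used here. Copies of a transcript elsewhere in the genome were therefore set beside the level of each member. A member was said to have a copy over the part of its transcript that aligned with at least 90% identity over at least 100 bases to a transcript of another gene. The 47 nuclear members with a copy over at most 10% of the transcript had a median Sham level of 28.8 RPM, and 7 of them were under 5 RPM. The 30 with a copy over 10 to 50% had a median of 2.72 RPM, and 18 were under 5 RPM. The 14 with a copy over more than 50% had a median of 7.47 RPM, with 5 under 5 RPM. Part of these copies were neighbouring genes that overlap the member. Gapdh, a glycolytic enzyme that most cells express strongly, was listed at 2.39 RPM on average in Sham, so low values were not limited to weakly expressed genes.

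**Figure D1:**
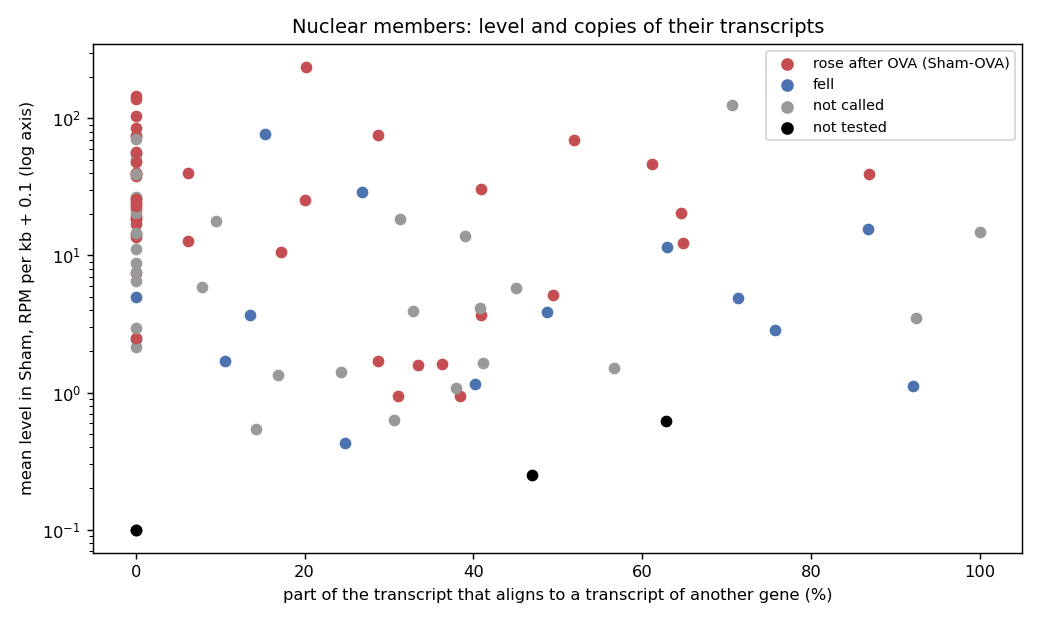
Each point is a nuclear member, with the part of its transcript that aligns to a transcript of another gene on the horizontal axis (%) and its mean level in Sham in RPM per kb of transcript plus 0.1 on a log axis. Colours give the call after OVA challenge in offspring of saline dams, and the highest levels are mostly at the left, where no copy was found.

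Of the 10 symbols that did not pass, Ndufs5, an accessory subunit of complex I, reached at most 0.301 RPM and Uqcrb, a subunit of complex III, at most 0.519 RPM in 1 library. Copies covered 46.9% and 62.8% of their transcripts. Cox7b2 and Cox8c were listed at 0, as were mt-Co2, mt-Atp8, mt-Atp6, mt-Co3, mt-Nd3 and mt-Nd4l. These 6 mitochondrial genes are contiguous in the annotation, at chrM:7013-10173 (GRCm38). Apart from mt-Atp8, from 97.6 to 99.9% of their windows of 100 bases, the length of the reads, were identical to nuclear copies on chromosome 1, and none of the annotated copies has a row in the table. Only annotated transcripts were searched, so a copy of mt-Atp8 elsewhere in the nuclear genome would be missed. Genes at 0 here can be failed estimates, and complex V was represented by nuclear genes alone. Just inside the rule were Uqcr11, which reached 0.5 RPM in 9 libraries, and Cox7a2l and Ndufa1, which did so in 11 each. Ndufb4 did so in 14 and Atp5o in 15. Ndufa1 passed mainly through the OVA libraries, where it was higher, and Ndufb4 and Atp5o mainly through saline libraries. Calls on these genes are therefore not independent of the filter.

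Per length of transcript, 5 of the 7 mitochondrial members were above every nuclear member in Sham: mt-Nd1, a core subunit of complex I, had 5226 RPM per kb, mt-Nd4 had 2162, mt-Cytb had 1799, mt-Nd2 had 1497 and mt-Nd5 had 536 RPM per kb. mt-Nd6 had 15.5 RPM per kb. mt-Co1, the catalytic subunit of complex IV, had 24.9 RPM per kb, and 26.3% of its windows of 100 bases were shared with the copy on chromosome 1. The highest nuclear members were Cox4i1, the ubiquitous isoform of complex IV subunit 4, at 236 RPM per kb, Atp5a1, the alpha subunit of ATP synthase, at 144, Atp5g3, 1 of 3 genes for the c ring, at 138, and Atp5b, the catalytic beta subunit, at 126 RPM per kb. Between neighbours among these first 4 mitochondrial levels the difference was smaller than the SD of the higher one, Sham replicate 3 included.

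After OVA challenge the nuclear members rose as a sum, and the mitochondrial members did not. The 91 nuclear members summed to 2373 to 3648 RPM in Sham (median 3005) and 2829 to 3311 RPM in PM (median 3170), against 5529 to 6246 RPM in Sham-OVA and 4146 to 6602 RPM in PM-OVA. The saline and challenged ranges were thus separate. The 7 mitochondrial members summed to 7142 to 9104 RPM in Sham-OVA and 9408 to 14874 RPM in PM-OVA, within or below the saline range of 7754 to 30112 RPM. The ratio of the mitochondrial to the nuclear sum was 2.63 to 9.74 in Sham and 3.17 to 5.12 in PM, and 1.27 to 1.53 in Sham-OVA and 1.53 to 3.59 in PM-OVA. All 5 Sham-OVA libraries had a lower ratio than any saline library, and in PM-OVA this held for all but replicate 1, at 3.59. A sum is dominated by its most abundant genes, and in bulk tissue fewer cells of a type and less RNA per cell cannot be told apart.

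**Figure D2:**
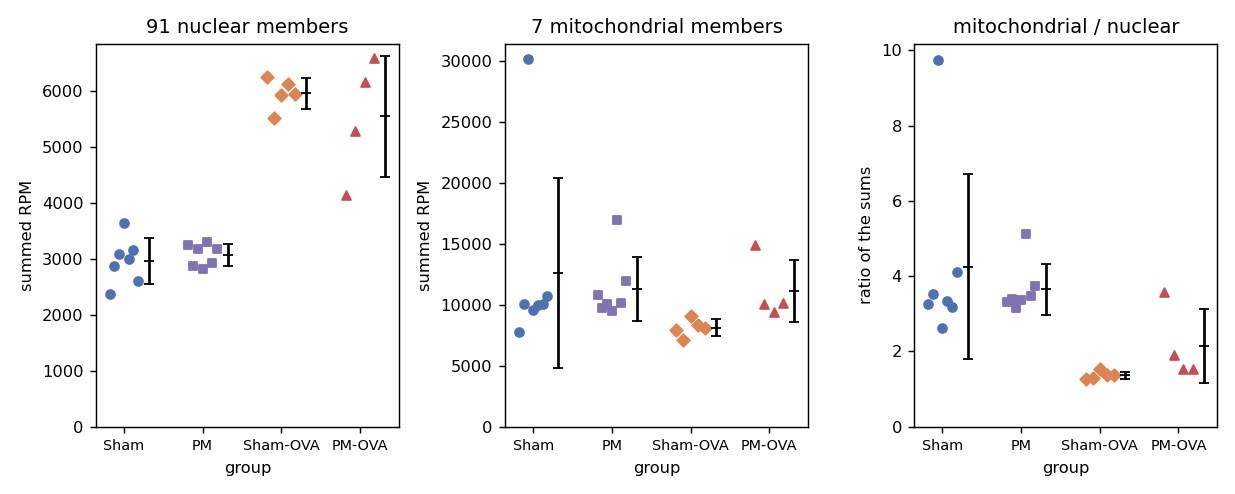
Summed RPM of the 91 nuclear members (left) and the 7 mitochondrial members (centre), and the ratio of the sums (right), with 1 point per library in each of the 4 groups and the group mean with its SD in black. The nuclear sums of all OVA libraries are at least 4146 RPM and those of all saline libraries at most 3648 RPM, and Sham replicate 3 lies apart in the other panels.

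Marker RNA of several cell types changed with the challenge. The study's lavage counts showed more eosinophils and lymphocytes after OVA and no effect on macrophages. The 8 markers of interstitial macrophages summed to 762 to 1400 RPM in Sham and 2974 to 4623 RPM in Sham-OVA, and 7 of them rose. The 5 plasma cell markers found summed to 279 to 453 RPM in Sham and 7210 to 12469 RPM in Sham-OVA, and all 5 rose. The sum of the type 2 markers went from 14107 to 24728 RPM in Sham to 30022 to 36817 RPM in Sham-OVA, although only 2 of the 8 rose and 3 fell. The type 1 sum went from 5631 to 8603 RPM to 3851 to 5132 RPM, with 6 of 8 markers lower. In PM offspring the interstitial macrophage sum went from 909 to 1501 RPM to 2886 to 3476 RPM and the plasma cell sum from 288 to 431 RPM to 6698 to 10906 RPM. The part of these cells in the changes of the members was not tested.

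Genes were tested with limma on log2(RPM + 0.5) and called at an adjusted p under 0.05, a scale on which changes of low genes are understated. In Sham-OVA against Sham 47 of the 98 members rose and 17 fell, beside 20.6% of all genes tested that rose and 47.5% that fell. In PM-OVA against PM 50 rose and 17 fell, beside 20.1% and 45.2% of all genes. The median log2 fold change of the nuclear members was 0.49 in Sham and 0.38 in PM offspring, whereas that of all genes tested was -0.48 and -0.43, so changes are also given relative to all genes, at 0.97 and 0.81. Both comparisons have their own saline controls and share no library. The study set a stricter threshold (adjusted p below 0.000001 with a log2 change beyond 1 in size) for DESeq2 on raw counts. It was applied here to limma, so the counts are not those of the study's test. At this threshold 9 members rose and 1 fell in Sham offspring, beside 1.98% and 2.53% of all genes. In PM offspring 0 passed in either direction, beside 0.262% and 0.0238% of all genes, although 51 members were higher and 18 lower at an unadjusted p under 0.05 in limma.

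The transcripts of the members are short, with a median length of 908 bases for nuclear members against 3174 bases for 16503 genes with a known length, and the challenge comparisons showed a trend with length and GC content across genes. With that trend removed the median of the nuclear members was -0.03 in Sham and -0.06 in PM offspring, still 0.41 and 0.35 above all genes, and 30 members rose and 24 fell in Sham offspring (18.4% and 46.2% of all genes) and 27 rose and 30 fell in PM offspring (17.6% and 44.4%). The direction of the nuclear members as a group therefore depended on this choice, and their position above the median gene did not.

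**Figure D3:**
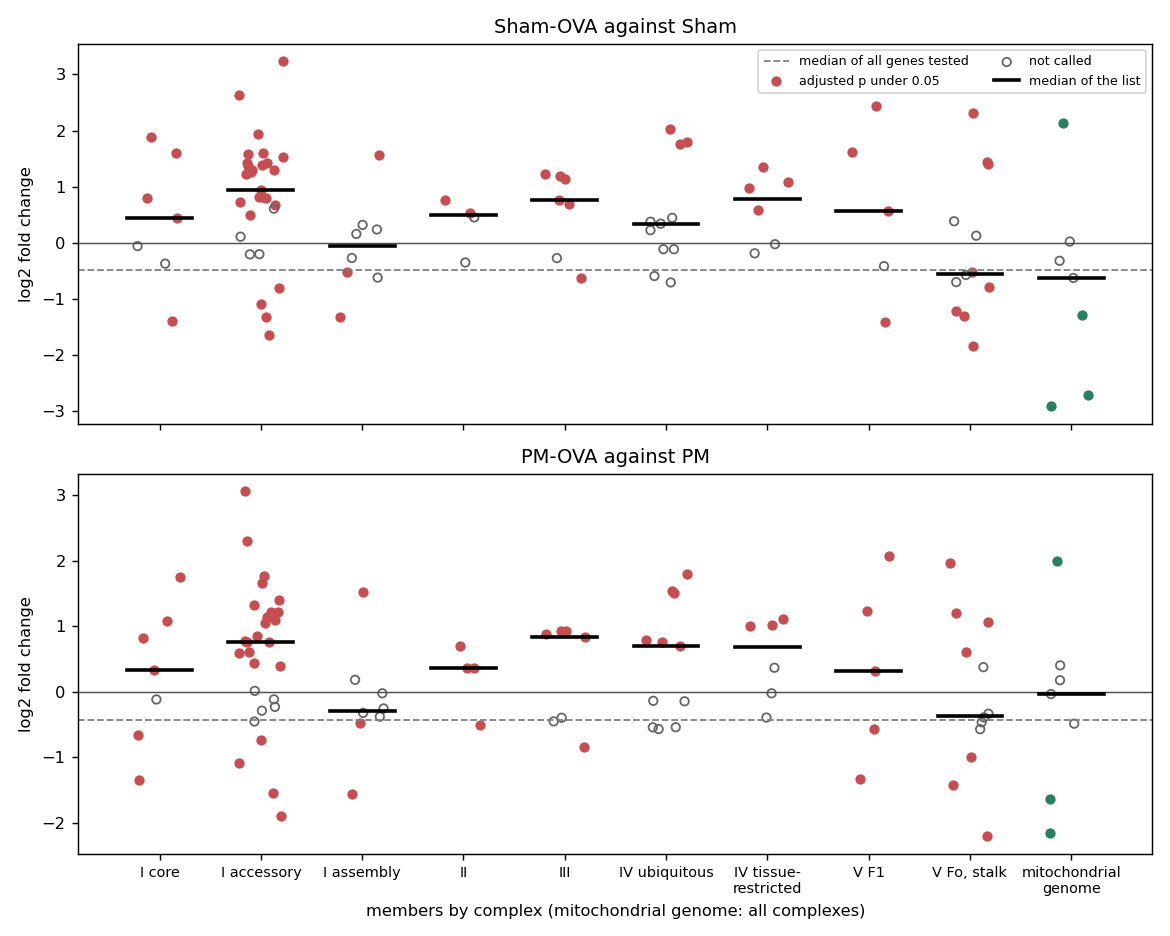
Log2 fold change of each member after OVA challenge by complex, in offspring of saline dams (top) and of PM2.5 dams (bottom). Filled points passed an adjusted p under 0.05, open points did not, black bars are list medians and the dashed line is the median of all genes tested, at -0.48 and -0.43. Accessory subunits of complex I lie mostly above 0, and the Fo and stalk subunits of complex V are spread on both sides.

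Nuclear complex I, 44 of the 91 nuclear members, held 26 of their 46 rises in Sham and 25 of 49 in PM offspring. Of its 29 accessory subunits, which surround the catalytic core, 21 rose and 4 fell in Sham offspring and 20 rose and 4 fell in PM offspring, with medians of 0.94 and 0.77. The largest rise was in Ndufa3 (chr7:3617373-3620327), with 14.2 to 31.9 RPM in Sham (median 16.6) and 14.5 to 28.0 RPM in PM (median 17.8). It reached 111, 131, 623, 145 and 149 RPM in Sham-OVA replicates 1 to 5 and 39.3, 102, 339 and 449 RPM in PM-OVA replicates 1 to 4. Every OVA library was above every saline library, and the shallow Sham-OVA replicate 3 was far above the rest of its group. The log2 fold change was 3.23 ± 0.36 (SE, adjusted p = 2.55e-06) in Sham and 3.07 ± 0.52 (adjusted p = 0.000354) in PM offspring, and 2.79 and 1.76 without the 3 shallowest libraries. Ndufa2, another small accessory subunit, averaged 32.4 ± 10.2 RPM in Sham (SD, n = 7) and 199 ± 49.3 RPM in Sham-OVA (SD, n = 5), a rise of 2.63 ± 0.22 (adjusted p = 2.13e-07). In PM offspring it went from 31.7 ± 4.30 to 187 ± 112 RPM, by 2.30 ± 0.34 (adjusted p = 0.000177). Other accessory subunits that rose in both comparisons included Ndufa5 (1.94 and 1.66) and Ndufa9 (1.61 and 1.41).

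The 7 nuclear core subunits, which carry flavin and iron-sulfur clusters, did not move together. In Sham offspring 4 rose and 1 fell, and in PM offspring 4 rose and 2 fell. Ndufv2, an iron-sulfur subunit, had 19.7 to 42.1 RPM in Sham (median 27.1) and 95.8, 92.6, 149, 97.3 and 96.9 RPM in Sham-OVA. It had 23.1 to 34.8 RPM in PM (median 29.4) and 51.7, 83.0, 134 and 164 RPM in PM-OVA. The groups did not overlap in either comparison, with log2 fold changes of 1.88 ± 0.18 (adjusted p = 9.1e-07) and 1.76 ± 0.26 (adjusted p = 0.000174). Its partner Ndufv1, which binds NADH and FMN, was at 64.8 ± 7.04 RPM in Sham and 63.2 ± 13.8 RPM in Sham-OVA, a change of -0.06 ± 0.15 (adjusted p = 0.748), and at -0.12 ± 0.12 in PM offspring. Its sign turned with median-of-ratios scaling, to 0.31 in Sham offspring. Ndufs1, the largest iron-sulfur subunit, did not pass in Sham offspring (-0.37, adjusted p = 0.134) and fell in PM offspring (-0.65, adjusted p = 0.00925), a call lost without the shallow libraries, at -0.21. Ndufs3 fell by 1.40 and 1.34 from 2.88 and 2.58 RPM on average, with a copy over 75.7% of its transcript.

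Among the accessory subunits that fell were Ndufb11, Ndufab1, Ndufb2 and Ndufb4, the last of them near the minimum level. Ndufab1, the mitochondrial acyl carrier protein, had 10.1 to 14.1 RPM in Sham (median 13.0) and 6.67, 6.77, 0.621, 6.37 and 8.40 RPM in Sham-OVA. It had 10.1 to 16.3 RPM in PM (median 11.5) and 8.73, 6.96, 2.92 and 4.54 RPM in PM-OVA. Every OVA library was below every saline library of its comparison, and Sham-OVA replicate 3 was the lowest, with log2 fold changes of -1.33 ± 0.41 (adjusted p = 0.00964), or -0.78 without that library, and -1.09 ± 0.25 (adjusted p = 0.00229). Ndufb2 fell by 1.09 and 1.55 from medians of 7.10 and 6.54 RPM. Ndufb11 went from 10.5 ± 1.81 RPM in Sham to 4.17 ± 2.53 RPM in Sham-OVA, where replicate 3 was at 0, and from 9.36 ± 1.31 RPM in PM to 9.88, 5.95, 0.929 and 0 RPM in PM-OVA. Its change of -1.89 in PM offspring (adjusted p = 0.0184) was -0.26 without the 3 shallowest libraries (adjusted p = 0.32). Of the 8 assembly factors, which help to build the complex and leave it, Ndufaf8 rose by 1.57 ± 0.21 and 1.53 ± 0.23, from 14.2 ± 4.41 RPM in Sham to 41.5 ± 2.85 RPM in Sham-OVA. Ndufaf5 fell by 1.32 and 1.56 from 2.74 and 2.63 RPM, Ndufaf4 fell by 0.52 and 0.47, and the other 5 did not pass.

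**Figure D4:**
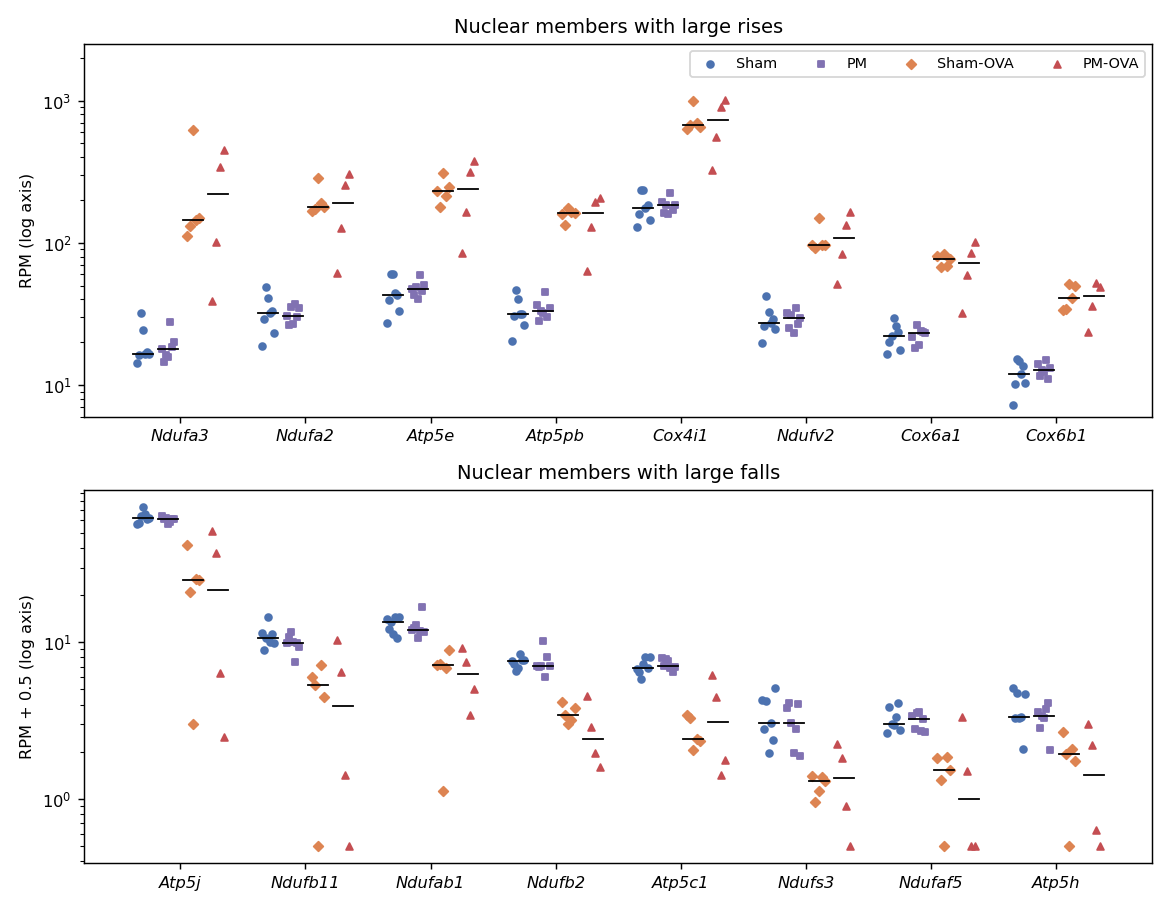
RPM of 8 nuclear members with large rises (top, log axis) and RPM plus 0.5 of 8 with large falls (bottom, log axis) in each library of the 4 groups, with a line at each group median. In PM-OVA the members that rose, such as Atp5e at 84.6 to 373 RPM, and those that fell, such as Atp5j at 51.0 to 2.00 RPM, both spread widely between libraries.

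Complex II, which oxidises succinate and feeds electrons to ubiquinone, had 2 of its 4 members higher in Sham offspring, and 3 higher and 1 lower in PM offspring, with medians of 0.49 and 0.36. Sdhd, a membrane anchor, had 73.3 to 115 RPM in Sham (median 87.6) and 202, 142, 86.7, 189 and 182 RPM in Sham-OVA, so replicate 3 overlapped the Sham range. It rose by 0.77 ± 0.20 (adjusted p = 0.00312) in Sham and 0.71 ± 0.12 (adjusted p = 0.000321) in PM offspring, where the groups did not overlap. Sdhc, the other anchor, rose by 0.54 and 0.36. The catalytic flavoprotein Sdha went from 159 ± 18.6 to 132 ± 44.5 RPM in Sham offspring, -0.35 ± 0.23 (adjusted p = 0.184), and fell by 0.50 in PM offspring (adjusted p = 0.0373), a call lost without the shallow libraries, at -0.05. The iron-sulfur subunit Sdhb had 0.45 ± 0.27 in Sham offspring (adjusted p = 0.144) and rose by 0.36 in PM offspring (adjusted p = 0.0424), with -0.30 after removal of the length and GC trend.

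Of the 7 nuclear members of complex III, 5 rose and 1 fell in Sham and 4 rose and 1 fell in PM offspring. Uqcr10, a small subunit, went from 29.9 ± 8.79 to 70.8 ± 20.2 RPM in Sham offspring, by 1.22 ± 0.25 (adjusted p = 0.000493), with replicate 3 of Sham-OVA, at 36.4 RPM, inside the Sham range. In PM offspring it went from 29.9 ± 5.47 to 58.2 ± 14.5 RPM, by 0.94 ± 0.18 (adjusted p = 0.000872), with no overlap. Copies covered 51.8% of the Uqcr10 transcript. Of the core proteins, Uqcrc1 rose by 0.76 and 0.88, from 42.6 ± 4.16 and 43.0 ± 4.28 RPM, whereas Uqcrc2 fell by 0.62 (adjusted p = 0.0482) and 0.83 (adjusted p = 0.0226), from 55.2 ± 7.02 and 57.4 ± 3.57 RPM. The change of Uqcrc2 was -0.29 without Sham-OVA replicate 3 (adjusted p = 0.0419), -0.67 and no longer called without Sham replicate 1 (adjusted p = 0.0511), and -0.08 in PM offspring without the 3 shallowest libraries (adjusted p = 0.561). The Rieske iron-sulfur protein Uqcrfs1 did not pass, at -0.27 ± 0.35 and -0.45 ± 0.28.

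In complex IV 7 of the 19 nuclear members rose in Sham offspring and 10 in PM offspring, and 0 fell in either, also at an unadjusted p under 0.05 in limma. Cox4i1 (chr8:120668222-120674207), which binds ATP and regulates the enzyme, had 129.7 to 236 RPM in Sham (median 176) and 635, 676, 993, 699 and 651 RPM in Sham-OVA. It had 159 to 224 RPM in PM (median 184) and 325, 551, 901 and 1002 RPM in PM-OVA. No groups overlapped, with log2 fold changes of 2.02 ± 0.18 (adjusted p = 3.53e-07) and 1.80 ± 0.26 (adjusted p = 0.000145). Cox6a1 rose from 22.2 ± 4.54 to 75.6 ± 7.30 RPM in Sham offspring (1.76) and Cox6b1 from 11.9 ± 2.87 to 42.1 ± 8.29 RPM (1.79), with 1.51 and 1.54 in PM offspring. A copy covered 86.9% of the Cox6a1 transcript. Other ubiquitous subunits did not pass in Sham offspring, among them Cox5a (-0.71 ± 0.40), Cox7a2 (0.44 ± 0.28), Cox7b (-0.59 ± 0.31), Cox8a (-0.11 ± 0.45) and Ndufa4 (0.34 ± 0.24), each under 10 RPM on average in Sham. In PM offspring Cox5b rose by 0.70 and Cox7a2 by 0.77. Cox5b-ps, a pseudogene whose symbol matches the rule, did not pass, at -0.85 and -0.95. Cox8a turned on 1 library: it had 12.6, 12.5, 11.2 and 9.35 RPM in Sham-OVA replicates 1, 2, 4 and 5 and 0.932 RPM in replicate 3, and its change was 0.50 without that library.

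The tissue-restricted isoforms were compared with their ubiquitous partners. Cox4i2, the isoform of subunit 4 that is prominent in lung, had 39.3 to 79.7 RPM in Sham (median 48.3) and 106, 113, 246, 129 and 128 RPM in Sham-OVA. It had 54.8 to 67.0 RPM in PM (median 62.4) and 57.3, 105, 223 and 226 RPM in PM-OVA, where replicate 1 lay inside the PM range. It rose by 1.36 ± 0.22 (adjusted p = 6.99e-05) and 1.12 ± 0.31 (adjusted p = 0.00656), beside 2.02 and 1.80 for Cox4i1, and per kb Cox4i1 was the higher of both in every group, at 236 against 74.6 RPM per kb in Sham and 955 against 197 in Sham-OVA. Ndufa4l2, the low-oxygen partner of Ndufa4, rose by 0.59 (adjusted p = 0.0021) in Sham offspring, with 0.37 (adjusted p = 0.0696) in PM offspring. Cox7a1, known from heart and skeletal muscle, rose by 1.09 and 1.03 from about 1 RPM, and Cox6b2, known from testis, by 0.98 and 1.01 from 4.32 and 3.76 RPM. Cox6a2 and Cox8b, also heart and muscle isoforms, did not pass (-0.19 and -0.02 in Sham offspring). The 10 cardiac markers summed to 116 to 339 RPM in Sham and 57.5 to 451 RPM in Sham-OVA, 5 of them fell and 0 rose. The 8 skeletal muscle markers summed to 8.80 to 25.9 RPM in Sham and 7.22 to 88.9 RPM in Sham-OVA. Sham-OVA replicate 3 had the highest cardiac (451 RPM) and skeletal muscle (88.9 RPM) sums and the highest Cox7a1 (4.97 RPM), whose rise was 0.91 without it. The 8 pericyte markers, a cell type known for Cox4i2 and Ndufa4l2, summed to 338 to 535 RPM in Sham and 289 to 330 RPM in Sham-OVA, with 6 lower and 1 higher. Whether these cells contributed was not tested.

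Promoter windows from RefSeq (GRCm38.p6), from 250 bases before to 50 after the gene start, were found for 74 of the 91 nuclear members and searched on both strands for the core motifs of 3 factors known to act on respiratory genes. The NRF1 core GCGCATGCG was in 10 windows (13.5%, against 1.95% of 27025 genes with a window), the GABP core CCGGAAGT in 5 (6.76%, against 4.31%) and the YY1 core AAGATGGCG in 8 (10.8%, against 1.64%). A match is a description of these letters and not a bound site. In Sham offspring the median change was 0.44 for the 22 members with any core and 0.45 for those without, and 0.20 and 0.46 in PM offspring. Single cores differed. Medians in Sham and PM offspring were -0.11 and -0.39 with a GABP core (0.45 and 0.44 without). They were 0.76 and 0.68 with a YY1 core (0.41 and 0.37 without), and 0.44 and 0.20 with an NRF1 core (0.45 and 0.46 without). These sets are small and their differences were not tested. As examples, 2 windows with an NRF1 core and 1 with a GABP core are printed 5′ to 3′ in the sense of the gene, without bases inside the annotated gene, and with the core in capitals (as GCGCATGCG, or as ACTTCCGG where the GABP core is on the other strand). Ndufaf4 and Uqcrh were picked after their values were seen, so these windows do not show how members with a core moved.
Cox6a1, chr5:115348982-115349208, minus strand: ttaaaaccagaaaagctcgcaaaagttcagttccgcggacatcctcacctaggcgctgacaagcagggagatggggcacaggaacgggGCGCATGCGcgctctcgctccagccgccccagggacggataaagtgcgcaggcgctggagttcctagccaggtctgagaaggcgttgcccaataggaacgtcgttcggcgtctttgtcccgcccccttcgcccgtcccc
Ndufaf4, chr4:24897833-24898082, plus strand: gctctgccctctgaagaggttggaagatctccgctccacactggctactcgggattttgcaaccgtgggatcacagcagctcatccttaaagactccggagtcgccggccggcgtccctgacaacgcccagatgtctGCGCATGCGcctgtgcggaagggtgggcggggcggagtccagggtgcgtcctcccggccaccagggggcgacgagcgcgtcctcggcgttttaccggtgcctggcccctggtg
Uqcrh, chr4:116075072-116075320, minus strand: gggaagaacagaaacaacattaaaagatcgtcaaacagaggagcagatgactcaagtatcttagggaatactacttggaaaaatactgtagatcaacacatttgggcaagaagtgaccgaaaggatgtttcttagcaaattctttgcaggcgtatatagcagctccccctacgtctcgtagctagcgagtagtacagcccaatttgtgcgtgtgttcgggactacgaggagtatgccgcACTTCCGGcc
Of these, Cox6a1 rose by 1.76 and 1.51, Ndufaf4 fell by 0.52 and 0.47, and Uqcrh, the hinge protein of complex III, rose by 1.13 and 0.92 in Sham and PM offspring. The median of all genes tested was -0.48 and -0.43, close to the change of Ndufaf4.

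Complex V held rises and falls in equal or nearly equal number, 6 and 6 of its 17 members in Sham and 7 and 5 in PM offspring. Of the 5 members of its catalytic F1 part, 3 rose and 1 fell in Sham and 3 rose and 2 fell in PM offspring. Atp5e, the epsilon subunit of the rotor, had 27.2 to 60.7 RPM in Sham (median 43.1) and 230.0, 179.9, 309.8, 214 and 246 RPM in Sham-OVA. It had 40.4 to 59.0 RPM in PM (median 47.1) and 84.6, 164, 315 and 373 RPM in PM-OVA. Every OVA library was above every saline library, with log2 fold changes of 2.43 ± 0.20 (adjusted p = 2.13e-07) and 2.07 ± 0.32 (adjusted p = 0.000222). Atp5c1, the gamma subunit of the same rotor, fell. It had 5.33 to 7.53 RPM in Sham (median 6.39) and 2.92, 2.78, 1.55, 1.91 and 1.83 RPM in Sham-OVA, and 5.99 to 7.43 RPM in PM (median 6.55) and 5.64, 3.94, 0.929 and 1.27 RPM in PM-OVA. The groups did not overlap, with changes of -1.41 ± 0.19 (adjusted p = 1.72e-05) and -1.32 ± 0.34 (adjusted p = 0.0048), and copies covered 48.7% of its transcript. The alpha subunit Atp5a1 rose by 0.56 and 0.31. The beta subunit Atp5b had -0.42 ± 0.25 in Sham offspring (adjusted p = 0.158) and fell by 0.57 in PM offspring (adjusted p = 0.0257), a call lost without the shallow libraries, at -0.10.

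Among the 12 members of the Fo part and stalks 3 rose and 5 fell in Sham offspring, and 4 rose and 3 fell in PM offspring. Atp5pb, subunit b of the peripheral stalk, went from 32.5 ± 8.63 to 159.6 ± 16.0 RPM in Sham offspring, by 2.31 ± 0.18 (adjusted p = 1.15e-07), and from 34.3 ± 5.53 to 149 ± 66.6 RPM in PM offspring, by 1.98 ± 0.27 (adjusted p = 0.000123). Copies covered 64.6% of the Atp5pb transcript. Atp5j, coupling factor 6 of the same stalk, had 56.1 to 72.4 RPM in Sham (median 62.1) and 41.1, 20.4, 2.49, 24.7 and 24.4 RPM in Sham-OVA. It had 56.5 to 64.0 RPM in PM (median 61.0) and 51.0, 36.5, 5.84 and 2.00 RPM in PM-OVA. All OVA libraries were below all saline libraries, and the 3 lowest were the 3 shallowest. Its changes were -1.84 ± 0.46 (adjusted p = 0.00265) and -2.21 ± 0.64 (adjusted p = 0.00882), and -1.21 and -0.48 without those 3. Atp5j overlaps Gabpa, the DNA-binding subunit of GABP, on the opposite strand, and Gabpa fell by 3.15 and 2.98. Whether the counting used strand is not given in the sources used here, so reads in the overlap, which covers 15.3% of the Atp5j transcript, cannot be told apart. Atp5h, subunit d of that stalk, fell by 1.22 ± 0.37 (adjusted p = 0.00856) and 1.42 ± 0.44 (adjusted p = 0.0127), and was at -0.32 in PM offspring without those 3 libraries (adjusted p = 0.317). Of the 3 genes for the c ring, which encode the same mature protein, Atp5g3 rose by 1.40 and 1.21 from 94.9 and 96.9 RPM (medians), Atp5g1 fell by 0.53 in Sham offspring from 1.55 RPM, and Atp5g2 did not pass at 0.94 RPM.

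The mitochondrial genome gave 1 rise and 3 falls among its 7 members in Sham and 1 rise and 2 falls in PM offspring, with medians of -0.63 and -0.03. mt-Nd2, a core subunit of the membrane arm of complex I (chrM:3914-4951), had 1026 to 3477 RPM in Sham (median 1260.5) and 166, 151, 258, 186 and 195 RPM in Sham-OVA. It had 1154 to 1919 RPM in PM (median 1277) and 1038, 315, 373 and 311 RPM in PM-OVA. All OVA libraries were below all saline libraries of their comparison, and PM-OVA replicate 1 was close to the PM range. The changes were -2.91 ± 0.26 (adjusted p = 4.53e-07) and -1.64 ± 0.30 (adjusted p = 0.000546), with -2.70 without Sham replicate 3 and -2.05 without PM-OVA replicate 1. mt-Co1 (chrM:5328-6872) had 24.1 to 96.1 RPM in Sham (median 30.9) and 4.31, 4.59, 5.59, 4.62 and 4.97 RPM in Sham-OVA. It had 26.7 to 55.5 RPM in PM (median 31.3) and 37.0, 9.27, 2.92 and 2.54 RPM in PM-OVA, where replicate 1 lay inside the PM range. It fell by 2.71 ± 0.28 (adjusted p = 1.72e-06) and 2.15 ± 0.55 (adjusted p = 0.00415), and in PM offspring by 0.87 without the shallow libraries, a call lost (adjusted p = 0.0917).

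mt-Cytb, the mitochondrial subunit of complex III, had 1219 to 5145 RPM in Sham (median 1599) and 679, 717, 933, 725 and 701 RPM in Sham-OVA. It fell by 1.29 ± 0.29 (adjusted p = 0.0011) with no overlap, and in PM offspring had -0.48 ± 0.26 (adjusted p = 0.12). mt-Nd6, the member on the opposite strand from the other 6 (chrM:13552-14070), had 5.26 to 17.5 RPM in Sham (median 6.34) and 21.5, 22.6, 111, 26.9 and 31.6 RPM in Sham-OVA. It had 6.44 to 10.1 RPM in PM (median 6.74) and 11.8, 17.4, 50.6 and 88.4 RPM in PM-OVA. It rose by 2.13 ± 0.38 (adjusted p = 0.000205) and 2.00 ± 0.43 (adjusted p = 0.00154) with no overlap, was highest in the shallow libraries, and rose by 1.71 and 0.91 without them. Whether the counting used strand is not given, so RNA of mt-Nd6 and RNA from the opposite strand cannot be told apart. mt-Nd1, mt-Nd4 and mt-Nd5 did not pass, with changes of -0.32 ± 0.31, 0.02 ± 0.30 and -0.63 ± 0.41 in Sham offspring and -0.03 ± 0.27, 0.41 ± 0.20 and 0.18 ± 0.39 in PM offspring. The values of mt-Nd5 were split by depth. It had 334 to 1924 RPM in Sham-OVA (median 410) and 420 to 1997 RPM in PM-OVA, highest in the shallow libraries, against medians of 809 in Sham and 823 in PM. Without the 3 shallowest libraries its change in PM offspring was -0.77, and 4 mitochondrial members fell in Sham offspring.

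**Figure D5:**
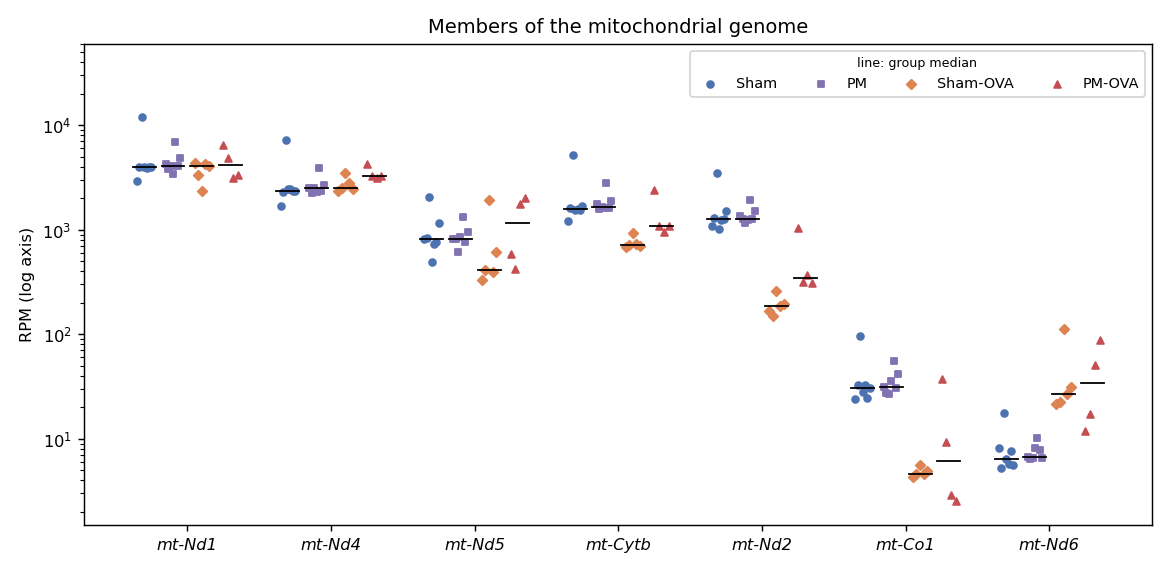
RPM of the 7 members of the mitochondrial genome in each library (log axis), with a line at each group median. mt-Nd2 and mt-Co1 are lower and mt-Nd6 is higher in OVA libraries, mt-Nd1 and mt-Nd4 overlap between groups, and Sham replicate 3 is the highest Sham library for all 7.

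Ratios within a library remove a common factor such as the high mitochondrial level of Sham replicate 3. They were taken to mt-Nd1, a choice made after the values had been seen, and groups were set against each other by exact permutation (two-sided, p-values adjusted over 18 comparisons). The ratio of mt-Nd2 to mt-Nd1 was 0.254 to 0.374 in Sham (median 0.318), 0.277 to 0.361 in PM (median 0.314), 0.0380 to 0.110 in Sham-OVA and 0.0642 to 0.159 in PM-OVA. The saline libraries, Sham replicate 3 included, lay in a narrow band, and no OVA library reached it. The exact permutation p was 0.00253 in Sham offspring (adjusted p = 0.0152) and 0.00606 in PM offspring (adjusted p = 0.0182), the smallest that these tests can give. The ratio of mt-Co1 to mt-Nd1 differed with the same p-values. That of mt-Cytb had adjusted p = 0.0195 and 0.0182, that of mt-Nd6 0.0152 and 0.0364, and that of mt-Nd4 0.198 and 0.0364 in the same exact permutation tests, whereas mt-Nd5 had 0.778 in both. The mt-Nd4 ratio of PM-OVA replicates 1 and 2 (0.646 and 0.669) lay inside the PM range of 0.558 to 0.673. In the shallow replicates 3 and 4 it was 1.00 and 0.973. The mt-Nd5 ratio was 0.0904 and 0.0857 in replicates 1 and 2 and 0.559 and 0.594 in 3 and 4. For mt-Nd6, PM-OVA replicate 1 (0.00180) was also inside the PM range (0.00135 to 0.00236). The mt-Nd2 ratio was higher in PM-OVA than in Sham-OVA (exact permutation p = 0.0476, adjusted p = 0.0857), which did not pass. Of the windows of 100 bases, 60.8% of mt-Nd4 and 3.2% of mt-Nd2 had an identical nuclear copy among annotated transcripts. Those of mt-Nd1, mt-Nd5, mt-Nd6 and mt-Cytb had no identical one there, and the rest of the nuclear genome was not searched. At 90% identity or more a copy covered 100% of mt-Nd6, 99.8% of mt-Cytb, 60.0% of mt-Nd5 and 49.1% of mt-Nd2, and none was found for mt-Nd1.

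Level, copies and depth moved with the calls. Among nuclear members with a copy over at most 10% of the transcript 29 rose and 2 fell in Sham offspring, and 31 rose and 4 fell in PM offspring. Among those with a copy over more than 50% 5 rose and 5 fell, and 6 rose and 5 fell. Across the 91 nuclear members the Spearman correlation of the log2 fold change with the mean level was 0.47 in Sham and 0.43 in PM offspring, and with the share of the transcript that has a copy -0.32 in both, given as descriptions. Among the 58 members with a mean of at least 10 RPM, 37 rose and 6 fell in Sham offspring (23.1% and 49.8% of 10024 genes) and 40 rose and 8 fell in PM offspring (22.4% and 50.9%). In PM-OVA the size of the changes differed between libraries. Members are grouped here by their calls on these same libraries, so their direction is fixed in advance. The median of all genes tested, relative to the Sham mean, was -0.10, -0.18, -0.67 and -0.77 in PM-OVA replicates 1 to 4. How many of all genes were lowest or highest in each library was not counted. The 49 nuclear members that rose had a median log2 difference from the PM mean of 0.53 in replicate 1, 1.05 in replicate 2, 1.37 in replicate 3 and 1.27 in replicate 4, and 38 of them were lowest in replicate 1. The 15 that fell had -0.10, -0.60, -1.71 and -1.78, and 14 of them were highest in replicate 1. In Sham-OVA the medians of the 46 that rose lay between 1.26 and 1.45 in all 5 libraries, and those of the 14 that fell were -1.65 in replicate 3 and -0.80 to -1.07 in the others. The median of all genes, relative to the Sham mean, was -1.03 in Sham-OVA replicate 3 and -0.24 to -0.44 in the others. Without the 3 shallowest libraries 54 members rose and 18 fell in Sham offspring, beside 4221 and 7925 of all 16795 genes. In PM offspring 45 members rose and 7 fell, beside 3311 and 5258 of all genes. With every library 3379 and 7589 of all genes rose and fell in PM offspring. Calls lost in PM offspring without those libraries included the rises of Cox4i2 (0.35), Cox5b (0.58), Cox7a1 (0.65) and Cox7a2 (0.28) and the falls of Uqcrc2 (-0.08), Ndufs3 (-0.55) and Ndufaf5 (-0.48). The part of depth in these differences was not tested.

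The comparisons of maternal exposure addressed whether developmental PM2.5 altered the chain at rest or its response to OVA. In PM against Sham 0 members passed, and 0% of all genes did. At an unadjusted p under 0.05, edgeR and DESeq2 each gave 2 members, beside 783 and 843 of all 16795 genes. In limma 0 members were higher and 2 lower at that level (2.51% and 1.85% of all genes). They were Cox5b, at 4.92 ± 1.56 RPM in Sham and 3.33 ± 0.804 RPM in PM, and Cox7b, at 1.31 ± 0.392 and 0.903 ± 0.217 RPM, each with an adjusted p of 0.898 in limma. The median over nuclear members was within 0.08 of 0 when each library was left out. In PM-OVA against Sham-OVA 0 members passed and 2 were higher and 2 lower at an unadjusted p under 0.05 (1.19% and 0.673% of all genes). In edgeR there were 4 members, beside 471 of all 16795 genes, and in DESeq2 5, beside 583. mt-Nd2 was higher by 1.23 ± 0.35, and by 0.82 without PM-OVA replicate 1. mt-Cytb was higher by 0.79 ± 0.28, and by 0.49 without PM-OVA replicate 1, with 960.3 to 2424 RPM in PM-OVA and 679 to 933 RPM in Sham-OVA and thus no overlap. Uqcr11, a small subunit of complex III near the minimum level, was lower by 0.96 ± 0.29, and Ndufb3 by 0.82 ± 0.35. All 4 had an adjusted p of 1 in limma.

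The interaction, which tests whether the effect of OVA differs between offspring of PM2.5 and of saline dams, had 0 calls among members and among all genes. Unadjusted, 2 members were higher and 2 lower (3.52% and 1.56% of all genes). In edgeR there were 8 members, beside 1388 of all 16795 genes, and in DESeq2 11, beside 1594. The smallest p were those of Uqcr11 (-1.08 ± 0.34), mt-Nd2 (1.28 ± 0.41) and Ndufb3, an accessory subunit of complex I (-0.96 ± 0.33), with an adjusted p of 0.643, 0.643 and 0.671 in limma. Without the 3 shallowest libraries, a choice made after seeing the data that leaves 2 PM-OVA libraries, 4 members passed, beside 3.64% of all genes that were higher and 0.649% that were lower. They were mt-Co1 (1.89, adjusted p = 0.0428), mt-Nd2 (1.76, adjusted p = 0.0351) and Atp5c1 (0.85, adjusted p = 0.0467), which were higher, and the complex I core subunit Ndufs8 (-0.92, adjusted p = 0.0337), which was lower. PM-OVA replicate 1, the library with the smallest changes, makes up 1 of those 2.

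Genes that work beside the chain were counted beside the background of all genes, 20.6% higher and 47.5% lower in Sham and 20.1% and 45.2% in PM offspring, and their difference from the members was not tested. Of 17 regulators of mitochondrial gene expression 4 rose and 4 fell in Sham and 4 rose and 7 fell in PM offspring. Gabpa went from 54.7 to 6.96 RPM and Yy1 from 118 to 21.6 RPM on average in Sham offspring (-3.15 and -2.63). Esrra, a nuclear receptor that acts on these genes, rose by 0.68 and 1.05, and Lrpprc and Slirp, which stabilise mitochondrial RNAs, rose by 1.25 and 1.28 in Sham offspring. Tfam, which packages mitochondrial DNA, had -0.46 in Sham offspring (adjusted p = 0.138) and fell by 0.83 in PM offspring (adjusted p = 0.0101). Polrmt, the mitochondrial RNA polymerase, fell by 1.00 and 1.04. Of 37 assembly factors outside the rule 12 rose and 12 fell in each comparison, with Cox17, a copper chaperone of complex IV, at 2.39 and 2.30 and Cox15, which makes its haem, at -2.10 and -1.97. Of 13 genes of cytochrome c and coenzyme Q synthesis 2 rose and 3 fell in Sham offspring and 2 rose and 2 fell in PM offspring.

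Fuel pathways are given beside the same background. Of 13 citric acid cycle genes 2 rose and 3 fell in Sham and 1 rose and 5 fell in PM offspring, among them Cs, citrate synthase (-1.44 and -1.52). Of 15 glycolytic genes 3 rose and 9 fell in Sham and 5 rose and 8 fell in PM offspring. Pfkl, a phosphofructokinase, rose by 1.20 and 1.18, and Pkm, pyruvate kinase, fell by 2.23 and 1.84. Among 75 mitochondrial ribosomal proteins, which are also short nuclear-encoded genes, 32 rose and 15 fell in Sham offspring and 32 rose and 17 fell in PM offspring (medians 0.34 and 0.19). Among 85 cytosolic ribosomal proteins, many of which have processed copies, 13 rose and 32 fell, and 12 rose and 29 fell (medians -0.43 and -0.40). The medians of the nuclear members, at 0.49 and 0.38, were above those of these lists, and the difference was not tested.

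Over the 23 libraries the genes outside the rule whose log2 values were most like the summed mitochondrial level were Gata5 (Pearson r = 0.769), Nrbp2 (0.732), Sord (0.725), Dnm1 (0.724) and Cys1 (0.722). All points share libraries and scaling, and the first 3 and Cys1 had their highest value in Sham replicate 3. Without that library r was 0.696, 0.495, 0.542, 0.781 and 0.443 in the same order.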

How the data were processed

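RNA-Seq of polyA RNA was analysed from 23 lung libraries (Sham n = 7, PM n = 7, Sham-OVA n = 5, PM-OVA n = 4), grouped by their labels. Per the study's methods, the authors trimmed 100-base single-end reads, aligned them to GRCm38 with Bowtie2, which does not split reads over introns, and quantified genes in SeqMonk. Whether counting used strand and how reads with several positions were treated is not given in the sources used here. The deposited table is named for RPKM, but its values are RPM without a length term: divided by what 1 read is worth in that library, 100% came out whole within 0.1 read, so reads per gene could be recovered.

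The test was limma 3.58.1 (R 4.3.3) on log2(RPM + 0.5) for genes that reached 0.5 RPM in 4 libraries or more, with Benjamini-Hochberg adjustment over 16795 genes. Each OVA comparison was fitted on its own groups, and the interaction on all 4. Alternatives were other pseudocounts and filters, median-of-ratios, quantile and mitochondria-free scaling, correction for transcript length and GC content, a replicate block, edgeR 4.0.16 and DESeq2 1.42.0 on recovered reads, and leaving out libraries. The omission of the 3 shallowest libraries and the minimum mean of 10 RPM were added after seeing the data. Transcript lengths and positions came from GENCODE M21. Members named were those of the mitochondrial genome, fixed catalytic and control subunits, tissue-restricted isoforms with their partners, the 5 highest and 5 lowest nuclear members of each OVA comparison, the 3 smallest p of each other comparison and the extremes of each list. Ndufa5, Ndufa9, Ndufb4, Ndufaf4, Ndufs8 and Uqcrh fell outside that rule and were named after their values were seen. Some items are not reported here. Members and lists were chosen with earlier results of these data known. Statistical code was tested on simulated data.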

Additional observations from a re-analysis of the deposited data

Results flagged for a closer look

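Libraries of a group were compared with Dixon's test for a lone extreme value (95% level) in 232 groups of values, and 33 exceeded the critical value, where chance gives about 1 in 20. The values below are listed by library, because few libraries held nearly all of them.

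Sham replicate 3 was the extreme of its group for the summed mitochondrial members (30112 RPM) and for mt-Nd1 (12089 RPM), mt-Nd4 (7232 RPM), mt-Cytb (5145 RPM), mt-Nd2 (3477 RPM), mt-Nd5 (2054 RPM), mt-Co1 (96.1 RPM) and mt-Nd6 (17.5 RPM), and also for Cox6b2 (7.47 RPM). PM replicate 5 was the extreme for the summed mitochondrial members (16955.5 RPM), mt-Nd1 (6932 RPM), mt-Nd4 (3897 RPM), mt-Cytb (2824 RPM), Ndufa3 (28.0 RPM) and Cox6b2 (6.40 RPM), and PM replicate 6 for Ndufab1 (16.3 RPM).

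Sham-OVA replicate 3, the shallowest library, was the extreme for 13 values. It was high for mt-Nd5 (1924 RPM), Cox4i1 (993 RPM), mt-Cytb (933 RPM), Ndufa3 (623 RPM), Ndufa2 (286 RPM), Cox4i2 (246 RPM), Ndufv2 (149 RPM), mt-Nd6 (111 RPM), Ndufb3 (7.77 RPM) and Cox7a1 (4.97 RPM). It was low for Sdhc (101.0 RPM), Cox8a (0.932 RPM) and Ndufab1 (0.621 RPM). PM-OVA replicate 1, the deepest OVA library, was high for the summed mitochondrial members (14874 RPM), mt-Nd4 (4228 RPM), mt-Cytb (2424 RPM) and mt-Nd2 (1038 RPM).

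The effect of OVA on Uqcr11 differed between offspring of PM2.5 and of saline dams by -1.08 on the log2 scale at an unadjusted p of 0.00394 in limma, which did not pass after adjustment (adjusted p = 0.643).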

How the results depend on the processing

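Of 36 settings, those that moved a summary of the members or turned a sign are given here, and the cause was not tested unless stated. In Sham offspring the nuclear median (0.49) was 0.82 with median-of-ratios scaling, 0.92 with quantile normalisation, 1.08 in edgeR, 1.01 in DESeq2, 0.82 at a mean of at least 10 RPM and -0.03 with the length and GC trend removed. Its distance above all genes (0.97) was 1.12 and 0.86 with pseudocounts of 0.1 and 1, 0.64 without a filter, 1.13 in edgeR, 1.14 in DESeq2, 1.29 at a mean of at least 10 RPM and 0.41 with the trend removed. The mitochondrial median (-0.63) was -0.26 with median-of-ratios, -0.96 with quantile, -0.01 in edgeR, -0.09 in DESeq2 and -1.06 without the 3 shallowest libraries. Of 47 members higher and 17 lower, 30 were higher with the trend removed and 9 at the study's threshold in limma, and 6 were lower at a mean of at least 10 RPM (fewer genes tested) and 1 at the study's threshold in limma. In PM offspring the nuclear median (0.38) was 0.72 with median-of-ratios, 0.79 with quantile, 0.51 with scaling without the mitochondrial genome, 0.83 in edgeR and in DESeq2, 0.86 at a mean of at least 10 RPM and -0.06 with the trend removed, and its distance above all genes (0.81) was 0.35 with the trend removed and 1.33 at a mean of at least 10 RPM. The mitochondrial median (-0.03) was -0.60 with quantile normalisation, 0.33 with median-of-ratios, edgeR and DESeq2, 0.11 with scaling without the mitochondrial genome, 0.14 with the replicate block and -0.20 with the trend removed. Of 50 higher and 17 lower, 27 were higher and 30 lower with the trend removed, 4 were lower in edgeR, 7 in DESeq2, 7 without the shallowest libraries and 8 at a mean of at least 10 RPM, and 0 passed in either direction at the study's threshold in limma. Without the shallowest libraries 3311 of all genes were higher and 5258 lower in PM offspring. The split of all genes in Sham offspring, 3453 higher and 7978 lower, was 4903 and 6407 with median-of-ratios, 5484 and 5812 with quantile, 5584 and 5669 in edgeR and 5286 and 6391 in DESeq2, and in PM offspring 3379 and 7589 became 4862 and 6003, 5288 and 5445, 5120 and 5095, and 5321 and 5376. For PM2.5 in challenged offspring the nuclear median (-0.12) was -0.21 without the shallowest libraries, and that of the interaction (-0.18) was -0.05 in edgeR, -0.07 in DESeq2 and -0.23 without those libraries, with 3 members higher and 1 lower in place of 0. Signs turned with the trend removed for Atp5g2 (-0.84 and -0.67) and Ndufa4l2 (-0.33 and -0.61) in Sham and PM offspring, for Uqcr11 (-0.34) in Sham offspring and for Atp5a1 (-0.01) and Sdhb (-0.30) in PM offspring. Atp5g1 was at 0.00 with quantile normalisation. Cox8a turned in Sham offspring to 0.66 in edgeR, 0.56 in DESeq2, 0.50 without Sham-OVA replicate 3 and 0.50 without the shallowest libraries, and in PM offspring to 0.53 without them. Ndufv1 turned to 0.31 with median-of-ratios, 0.29 with quantile, 0.40 in edgeR and 0.31 in DESeq2 in Sham offspring, and to 0.28 in DESeq2 in PM offspring, where Uqcrfs1 (0.31) and mt-Nd5 (-0.77) turned without the shallowest libraries. With each library left out in turn, Sham offspring gave 43 to 54 members higher and 15 to 19 lower. Most were higher without Sham-OVA replicate 3 (54, beside 4221 of all genes). Most were lower without Sham-OVA replicate 1 (19, beside 8149 of all genes). The nuclear median was 0.45 to 0.65, 0.95 to 0.99 above all genes, and the mitochondrial median -1.06 to -0.43. PM offspring gave 42 to 49 members higher and 10 to 27 lower. Most were lower without PM-OVA replicate 1 (27, beside 8476 of all genes) and fewest without PM-OVA replicate 3 (10, beside 6485 of all genes). The medians of PM offspring, in the same order, were 0.34 to 0.45, 0.77 to 0.97 and -0.24 to 0.08. PM2.5 in unchallenged offspring gave 0 calls and -0.02 to 0.08, -0.02 to 0.04 and -0.13 to 0.21, PM2.5 in challenged offspring 0 calls and -0.22 to -0.05, -0.24 to 0.03 and 0.32 to 0.62, and the interaction 0 calls and -0.26 to -0.08, -0.25 to 0.02 and 0.31 to 0.67. With a replicate block 42 members were higher and 15 lower in Sham offspring and 34 and 12 in PM offspring. All genes then split into 2908 higher and 7117 lower, and 2288 and 5694. Same-numbered libraries correlated at -0.07 to 0.12 in Sham-OVA and Sham, -0.10 to 0.06 in PM-OVA and PM, -0.25 to 0.10 in PM and Sham, and 0.60, 0.22, 0.62 and -0.31 in PM-OVA and Sham-OVA, where replicates 1 and 3 correlated best with their own number. No comparison had every pair above 0.1, so the numbers were not taken as pairs. Replicate numbers here are those of the sample titles, and most OVA libraries carry another number in their library name. Sham-OVA replicate 3 is named Sham-OVA_4 and PM-OVA replicate 4 is named PM-OVA_Rel1. Pairs by library name were not examined. Depth limited values under about 1 RPM most in Sham-OVA replicate 3, where 1 read was 0.311 RPM.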
